A study of Mus musculus with 12 samples.

Results

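The genes described here are the 10 members of the interleukin-2 (IL-2) receptor, JAK and STAT5 pathway, taken by name from the 55453 genes of the count table. They are the receptor chains Il2ra, Il2rb and Il2rg, the kinases Jak1 and Jak3, the transcription factors Stat5a and Stat5b, and the feedback genes Cish, Socs1 and Socs2. Of the 10, 8 passed the filter on low counts, along with 12411 genes in all, and Il2rg and Socs1 did not.

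The study sequenced RNA of CD4+ Foxp3+ regulatory T (Treg) cells sorted from C57BL/6 mice, and its title places them in the thymus. CNS4 is a distal enhancer of Foxp3, the X-linked gene of the transcription factor that defines Treg cells. There were 4 groups of 3 libraries each: males labelled CNS4 floxed (wild type), males labelled CNS4 knockout, females labelled CNS4 floxed heterozygotes and females labelled CNS4 knockout heterozygotes. The mice were matched for age and sex, with no ages given, and the cells received no treatment. What the other X chromosome of the females carried, and whether a library came from 1 animal, was not given in the sources used here, so p-values measure the spread between these libraries. The title speaks of IL-2 dependent commitment of Treg cells, and the comparison asked whether the transcripts of the IL-2 pathway differ when the enhancer is missing.

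IL-2 is bound with high affinity by a receptor of several chains. The alpha chain, CD25 (Il2ra), raises affinity, and the beta and common gamma chains (Il2rb, Il2rg) carry the signal. Jak1 and Jak3, bound to those signalling chains, phosphorylate the receptor and STAT5, which moves to the nucleus and binds DNA at the motif TTCNNNGAA. Treg cells keep CD25 high and need IL-2 and STAT5 for their development in the thymus. Cish, Socs1 and Socs2 are induced by STAT5 and restrain the same receptors and kinases.

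Promoter windows, from 250 bases before to 50 after an annotated start, were taken from RefSeq on build GRCm38.p6, which is later than the mm9 build of the counts. They covered 8 of the members with 10 windows. The motif TTCNNNGAA, which reads the same on both strands, was found in 1 of these 10, that of Cish, and in 8.3% of all 32851 windows. Cish is shown because its window held 2 matches, as did 0.457% of all windows with 2 or more. The matches, in capitals, begin at the start site and 11 bases after it. A match is a description of the letters and not a site shown to be bound. The window lies at chr9:107296409-107296708 on the plus strand.

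Cish: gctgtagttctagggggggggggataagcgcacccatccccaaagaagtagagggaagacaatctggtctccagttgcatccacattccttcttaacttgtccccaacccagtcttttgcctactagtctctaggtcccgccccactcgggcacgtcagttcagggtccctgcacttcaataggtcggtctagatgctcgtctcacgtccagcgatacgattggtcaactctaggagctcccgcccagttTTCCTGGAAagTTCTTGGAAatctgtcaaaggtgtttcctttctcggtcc

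Stat5a and Stat5b are neighbouring paralogs on chromosome 11, on the plus and the minus strand. Their windows are shown to set the promoters of the 2 genes side by side. Among their windows the longest identical run had 16 bases, in capitals below, within the last 120 bases of a window at chr11:100860234-100860533 (Stat5a, plus strand) and one at chr11:100822521-100822820 (Stat5b, minus strand). These stretches run from 70 bases before the start to 50 after it, and the shared run ends before the start in both.

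Stat5a: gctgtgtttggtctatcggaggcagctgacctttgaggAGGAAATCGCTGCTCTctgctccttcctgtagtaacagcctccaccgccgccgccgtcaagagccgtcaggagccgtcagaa

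Stat5b: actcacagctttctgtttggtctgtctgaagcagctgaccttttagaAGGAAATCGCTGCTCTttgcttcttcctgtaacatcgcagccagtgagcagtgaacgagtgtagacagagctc

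The transcripts share more sequence. Of the 50-base stretches in the longest Stat5a transcript of GENCODE release M21, 10.8% also occur in a Stat5b transcript. In the other direction the share was 11.8%. How the counting treated such reads was not given in the sources used here, so the 2 genes are uncertain to that extent.

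The strand of a gene set how deeply it was counted. The 4 members on the plus strand, Il2ra, Jak3, Stat5a and Cish, had 639 to 56830 counts per library. The 6 on the minus strand, Il2rb, Il2rg, Jak1, Stat5b, Socs1 and Socs2, had 0 to 1768. Across protein-coding genes the median of the mean count was 70.3 on the plus and 0.25 on the minus strand, so that a low count of a minus-strand member says nothing of its transcript level. Gene counts ran from 12423335 to 30244505 per library. The common gamma chain gene Il2rg, without which no IL-2 signal is passed, had 1 to 13 counts per library. Socs1, an inhibitor of JAK kinases, had 0 counts in 10 libraries and 1 count in 2 male knockout libraries. Among those 10, a count of 0 allows at most 0.233 CPM (counts scaled to a TMM-adjusted library size of 1000000), which covers counting error only. Cish shares 740 exonic bases with genes of the other strand, Stat5a 72 and Jak1 4.

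**Figure D1:**
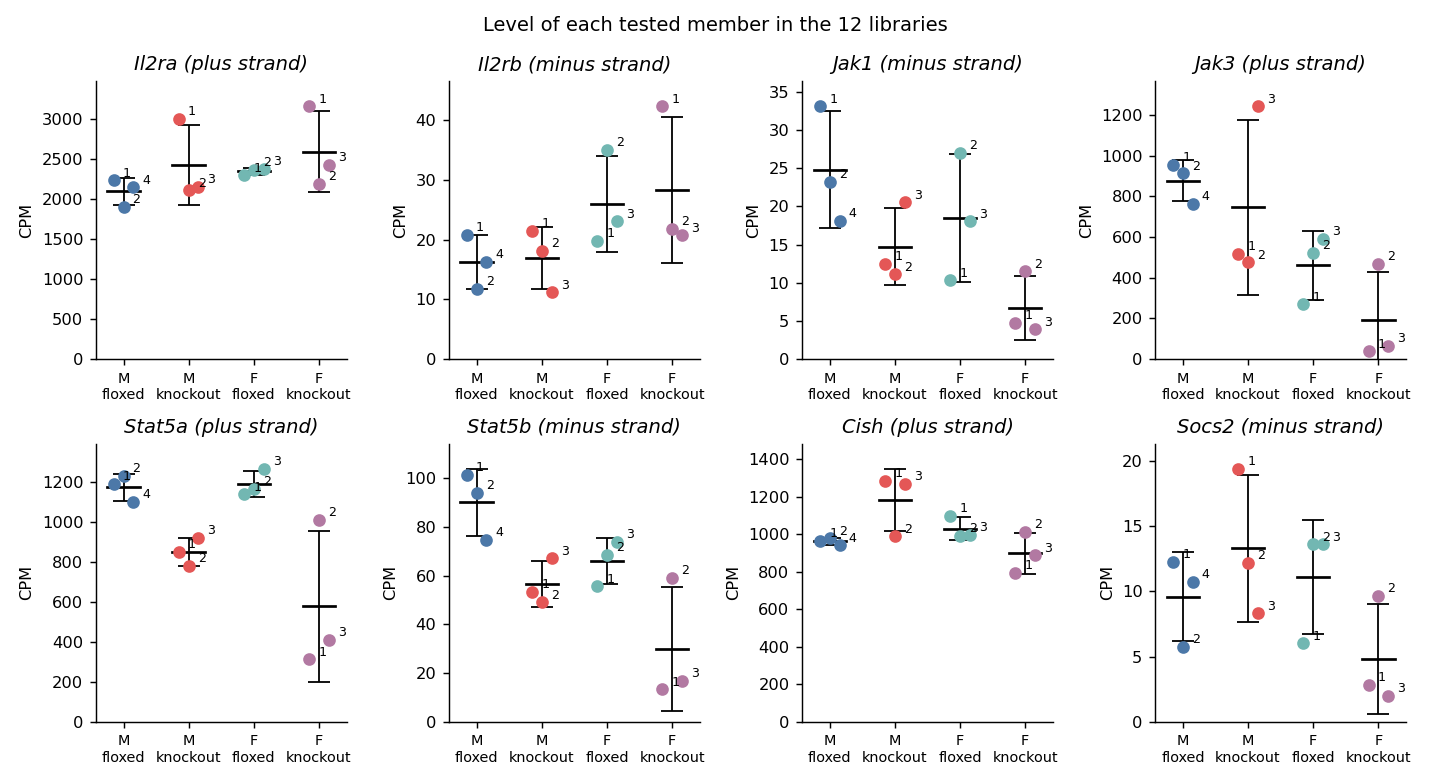
Level in CPM (y axis from 0) of the 8 tested members in each library, by sex (M, F) and genotype. Points are libraries with their replicate number, lines with bars the mean and SD of 3 libraries, cut at 0. Female knockout libraries 1 and 3 lie lowest of the 12 for 6 members, as they do for 25.3% of all tested genes. The genotypes overlap in each sex for Il2ra, Il2rb, Jak1, Jak3 and Socs2, and in females for Stat5b and Cish.

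Il2ra, the alpha chain, had the highest level per kilobase of exon of the 4 plus-strand members, with all annotated exons of a gene joined. In floxed males its level was 2237, 1904 and 2152 CPM in libraries 1, 2 and 4, and in knockout males 3008, 2114 and 2159 CPM in libraries 1 to 3. In females it was 2298, 2370 and 2378 CPM in floxed and 3163, 2191 and 2435 CPM in knockout libraries 1 to 3. The genotypes overlapped in both sexes, and knockout library 1 was the highest of its group in each sex. Over both sexes the ratio of knockout to floxed was 1.13 (95% interval 0.948 to 1.35), or 0.18 as a log2 fold change (SE 0.12). Its p, from the quasi-likelihood test of edgeR and adjusted by Benjamini and Hochberg's method for every gene tested, was 0.395.

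Il2rb, the signalling beta chain on the minus strand, was counted at 20.8, 11.8 and 16.3 CPM in floxed males and 21.5, 18.1 and 11.2 CPM in knockout males. Floxed females had 19.8, 35.1 and 23.1 CPM and knockout females 42.4, 21.8 and 20.7 CPM. The groups overlapped, with the highest value in female knockout library 1. Its ratio over both sexes was 1.06 (95% interval 0.716 to 1.58), or 0.09 on the log2 scale (SE 0.26, edgeR adjusted p = 0.862). Its sign turned when library 2 of the floxed males (-0.0072), library 1 of the knockout males (-0.019) or library 1 of the knockout females (-0.13) was left out.

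Jak3, the kinase bound to the gamma chain, varied most among the plus-strand members. Floxed males had 955, 913 and 762 CPM in libraries 1, 2 and 4, and knockout males 516, 476 and 1242 CPM in libraries 1 to 3. Floxed females had 269, 523 and 590 CPM, and knockout females 38.6, 467 and 64.1 CPM. Female knockout libraries 1 and 3 lay far below every other library, while male knockout library 3 was the highest of the 12. The log2 fold change was -0.23 (SE 0.78) in males and -1.28 (SE 0.79) in females, neither past the threshold (edgeR adjusted p = 0.999 and 0.368).

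Jak1, the kinase bound to the beta chain, lies on the minus strand and had 53 to 540 counts. Its level was 33.1, 23.2 and 18.1 CPM in floxed and 12.5, 11.1 and 20.5 CPM in knockout males. In females it was 10.3, 27.0 and 18.1 CPM in floxed and 4.71, 11.5 and 3.91 CPM in knockout libraries. Each sex had 1 knockout library above the lowest floxed one. Over both sexes the log2 fold change was -1.11 (SE 0.34, 95% interval -1.85 to -0.36), with an edgeR adjusted p of 0.105.

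Stat5a was the only tested member whose knockout libraries all lay below the floxed ones of the same sex, in both sexes. Floxed males had 1190, 1230 and 1099 CPM and knockout males 848, 780 and 920 CPM. Floxed females had 1137, 1164 and 1263 CPM and knockout females 312, 1008 and 411 CPM. Means were 1173 ± 67.1 and 850 ± 70.02 CPM in males and 1188 ± 66.5 and 577 ± 377 CPM in females (SD, n = 3 each). Such a lower, non-overlapping pattern in both sexes was seen in 1.78% of the 12411 tested genes. The log2 fold change was -0.47 (SE 0.34, edgeR adjusted p = 0.903) in males and -1.04 (SE 0.34, edgeR adjusted p = 0.179) in females. Over both sexes it was -0.75 (SE 0.24, 95% interval -1.29 to -0.22, edgeR adjusted p = 0.119).

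Stat5b, on the minus strand, showed 101, 94.1 and 74.8 CPM in floxed males and 53.4, 49.0 and 67.2 CPM in knockout males, without overlap. Floxed females had 55.7, 68.6 and 73.9 CPM and knockout females 13.3, 59.2 and 16.9 CPM, where female knockout library 2 lay above floxed library 1. The log2 fold change over both sexes was -0.91 (SE 0.33, 95% interval -1.64 to -0.18, edgeR adjusted p = 0.162).

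Cish, which encodes the CIS protein and is a standard readout of STAT5 activity, had 966, 978 and 942 CPM in floxed males and 1287, 990 and 1269 CPM in knockout males. Each knockout male lay above each floxed one, library 2 by a small margin. Floxed females had 1099, 992 and 999 CPM and knockout females 796, 1013 and 887 CPM, which overlapped. Its log2 fold change was 0.30 (SE 0.12, edgeR adjusted p = 0.549) in males and -0.20 (SE 0.12, edgeR adjusted p = 0.371) in females. The difference between the 2 contrasts was -0.49 (SE 0.17), with an unadjusted p of 0.0167 and an edgeR adjusted p of 0.892. Over both sexes the ratio was 1.04 (95% interval 0.906 to 1.18).

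Socs2, a STAT5-induced inhibitor of cytokine signalling on the minus strand, had 27 to 308 counts. Floxed males had 12.3, 5.74 and 10.7 CPM and knockout males 19.4, 12.2 and 8.32 CPM. Floxed females had 6.01, 13.6 and 13.6 CPM and knockout females 2.84, 9.65 and 1.99 CPM, and the genotypes overlapped in each sex. Its log2 fold change was 0.47 (SE 0.59) in males and -1.20 (SE 0.60) in females, with an edgeR adjusted p of 0.999 and 0.293.

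**Figure D2:**
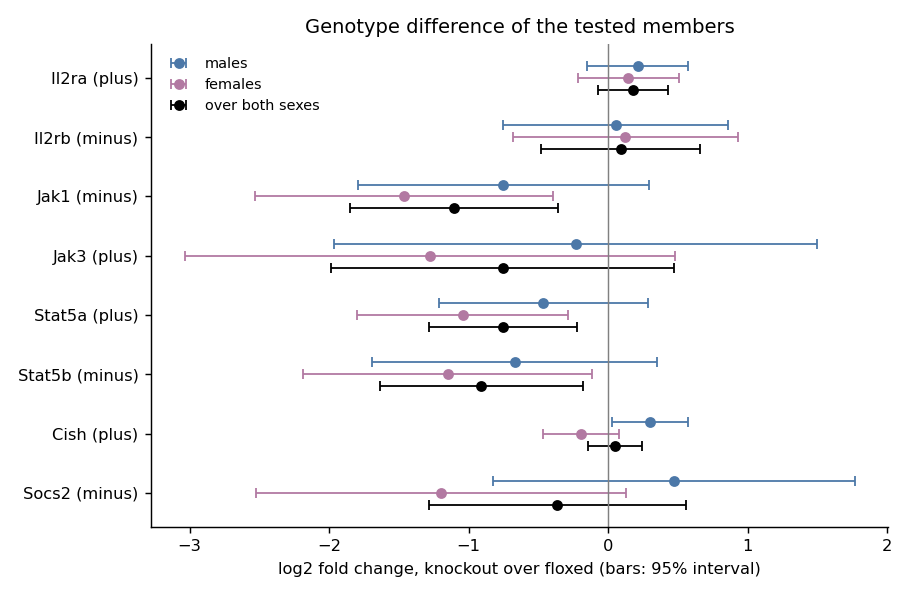
Log2 fold change, knockout over floxed, of the 8 tested members (x axis) with its 95% interval, for males, females and the mean of both contrasts, with each gene's strand. The intervals of Jak1, Stat5a and Stat5b over both sexes lie below 0 before adjustment for the number of genes tested, and none of the 8 passed after it.

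In the comparison over both sexes, 0 of the 8 members passed an adjusted p of 0.05, against 3.31% of the 12411 genes, and 0.637% were called lower. Jak1, Stat5a and Stat5b, 3 of the 8, had an unadjusted edgeR p under 0.05, as did 2512 of the 12411 genes. DESeq2 called 9.17% of the genes it gave an adjusted p and 2 members, Jak1 (-1.11, adjusted p = 0.0207) and Stat5a (-0.76, adjusted p = 0.0432), and gave no adjusted p for Jak3. Limma-voom with quality weights called 37.5% of all genes and 5 members, all lower: Jak1, Jak3, Stat5a, Stat5b and Socs2. In males edgeR called 0 of 8, beside 0.0242% of all genes. There 1 member had an unadjusted p under 0.05, as did 1008 of the 12411 genes. DESeq2 and limma-voom called 0 members in males, beside 237 and 178 genes. In females edgeR called 0 of 8 as well, beside 0.201% of all genes. There 3 members had an unadjusted p under 0.05, as did 2378 of the 12411 genes. DESeq2 called 1 member in females, Jak1, beside 6.76% of genes, and limma-voom 5, beside 44%. When the female contrast was set against the male one, edgeR called 0 members and 0% of all genes. There 1 member had an unadjusted p under 0.05, as did 339 of the 12411 genes. DESeq2 called 0 members there and limma-voom 3, beside 8.5% of all genes: Jak3, Stat5a and Socs2, each with a lower fold change in females than in males. Values did not overlap between the genotypes for 3 of the 8 in males (Stat5a and Stat5b lower, Cish higher) and for 1 in females (Stat5a), beside 14.3% and 25% of all tested genes. The median log2 fold change of the 8 was -0.09 in males, -1.10 in females and -0.56 over both sexes, and that of all tested genes 0.01, -0.02 and -0.02.

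Female knockout libraries 1 and 3 stood apart from the other 10. They were the 2 lowest of all 12 libraries for 6 of the 8 tested members (Jak1, Jak3, Stat5a, Stat5b, Cish and Socs2), a pattern held by 25.3% of all tested genes. These 2 libraries were singled out with their values known. Beside them, female knockout library 2 had 1008 CPM of Stat5a, 467 CPM of Jak3 and 59.2 CPM of Stat5b. Genes with GC-rich transcripts were low in the same libraries: among plus-strand genes, the decile with the highest transcript GC content lay a median of 1.30 and 0.92 log2 units below its mean over libraries in female knockout libraries 1 and 3 (-1.30 and -0.92). In the other 10 libraries this value ran from -0.16 to 0.59. The mitochondrial share of gene counts was 4.04 and 3.40% in these libraries and 1.17 to 2.77% in the rest. Their part in the differences was not tested beyond the corrected fit given next.

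Jak3 and Stat5a, with transcripts of 61.0 and 57.9% GC, fall into that highest decile, whose median female log2 fold change was -0.69 and male one -0.05. The female values of Jak3 (-1.28) and Stat5a (-1.04) were lower than this median and inside the range from the 10th to the 90th percentile of the decile (-1.36 to 0.13). Il2ra (44.4% GC) lay in the third decile from the bottom, where the female median was 0.10. Jak1 (47.6% GC) and Socs2 (45.4% GC) fell in deciles with female medians of 0.01 and 0.10 and 10th percentiles of -0.82 and -0.63. Their own values were -1.46 and -1.20. Cish and Stat5b (53.1 and 52.7% GC) both lay in a decile with a female median of -0.18 and a 10th percentile of -0.96, at -0.20 and -1.15. The deciles hold plus-strand genes with a mean of at least 8 CPM, so they are not a like background for the minus-strand Jak1, Socs2 and Stat5b. In a fit corrected for transcript GC content and exon length, chosen after the data were seen, Stat5a had -0.45 (SE 0.11, edgeR adjusted p = 0.0560) over both sexes, Jak3 -0.47, Jak1 -1.05, Stat5b -0.85, Il2ra 0.16 and Cish 0.16.

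**Figure D3:**
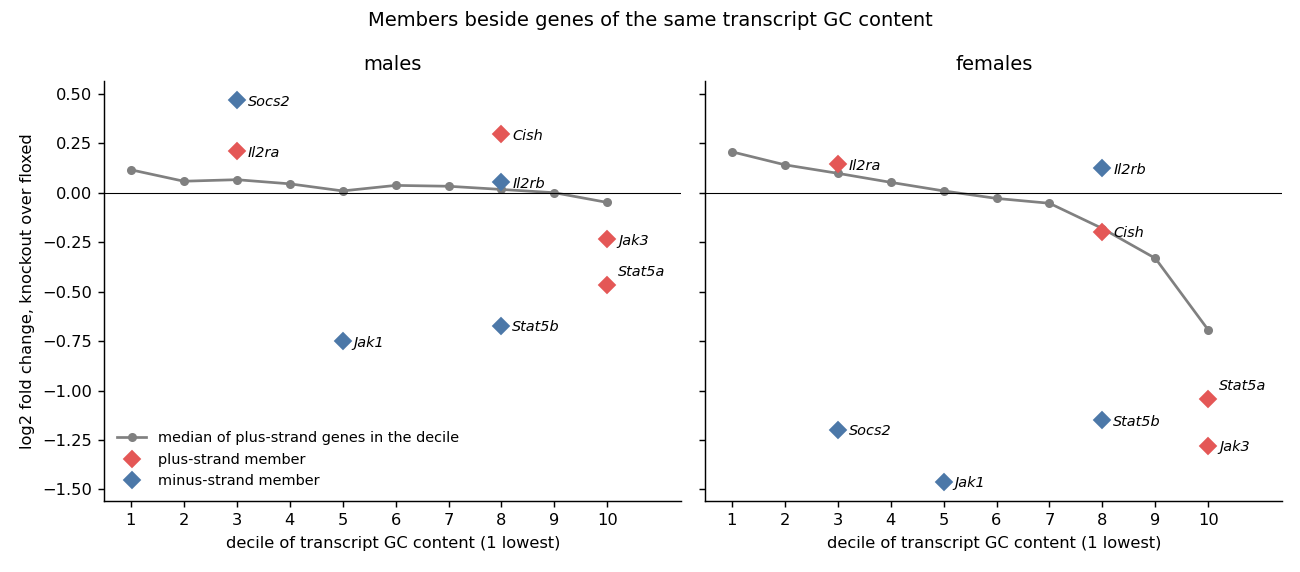
Log2 fold change, knockout over floxed (y axis), against the decile of transcript GC content (x axis, 1 lowest), in males and females. Grey points are medians of about 576 plus-strand genes per decile, and diamonds are the members by strand. In females the grey line falls to -0.69 in the highest decile, which holds Jak3 and Stat5a, while Jak1, Stat5b and Socs2 lie well below it.

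Whether the JAK and STAT5 genes were called changed with female knockout library 2. Without it, edgeR called 4 members lower over both sexes, beside 14.3% of the 13029 genes then tested: Stat5a (-1.08, SE 0.09, adjusted p = 0.00117), Stat5b (-1.39, SE 0.14, adjusted p = 0.00117), Jak1 (-1.41, SE 0.29, adjusted p = 0.00706) and Jak3 (-1.68, SE 0.32, adjusted p = 0.00604). Il2ra (0.24, edgeR adjusted p = 0.140) and Cish (0.01, edgeR adjusted p = 0.952) were not called. In females alone that fit called 23.7% of genes and 5 members, the same 4 and Socs2 (-2.18). For the difference between the sexes it called 8.5% of genes, and the called members were Stat5a, Stat5b, Jak3 and Socs2. With library 2 as the only female knockout library kept, a fit that gives the lone sample the spread of the others, Stat5a had -0.35 (edgeR adjusted p = 0.0919), Stat5b -0.42, Jak1 -0.72 and Jak3 -0.11 over both sexes. Over 22 alternatives the adjusted p of Stat5a ran from 4.28e-04 to 0.370.

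**Figure D4:**
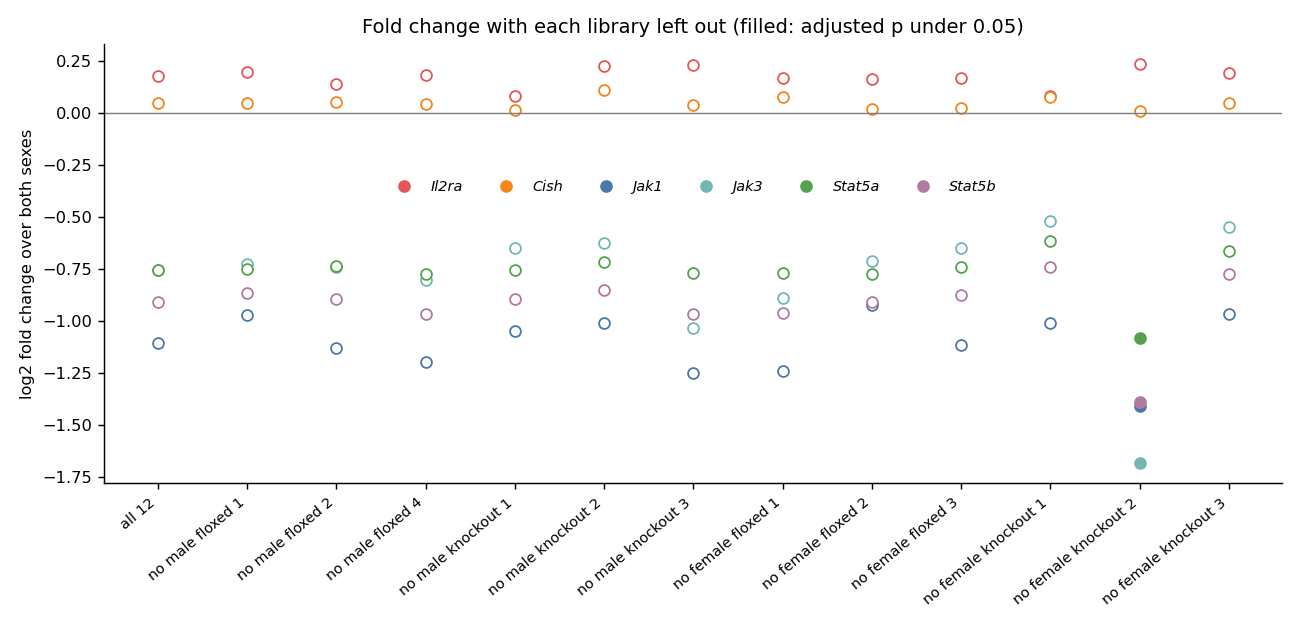
Log2 fold change over both sexes (y axis) of 6 members in the fit of all 12 libraries and with each library left out in turn (x axis). Filled points have an edgeR adjusted p under 0.05. Jak1, Jak3, Stat5a and Stat5b pass only without female knockout library 2, and Il2ra (0.08 to 0.24) and Cish (0.01 to 0.11) stay above 0 throughout.

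In males Stat5a was at -0.47 and Stat5b at -0.67 with wide errors (SE 0.34 and 0.46). These errors come from 1 estimate of the spread shared with the female groups. Without female knockout library 2 the male values were -0.46 (SE 0.12, edgeR adjusted p = 0.179) for Stat5a and -0.66 (SE 0.18, edgeR adjusted p = 0.203) for Stat5b. In the 12 fits that left out a library, and in each other alternative run, no member was called in males.

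Foxp3, the gene to which the CNS4 enhancer belongs, had its lowest levels in female knockout libraries 1 and 3. The same held for 25.3% of all tested genes. Foxp3 had 685, 1824 and 825 CPM in female knockout libraries 1 to 3 and 2582 to 2658 CPM in floxed females. Knockout males had 1462 to 2037 CPM and floxed males 2227 to 2675 CPM. EdgeR did not call Foxp3, with an adjusted p of 0.835 in males, 0.103 in females and 0.060 for the sexes combined. Whether STAT5 or the missing enhancer had a part in these levels was not tested.

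Between floxed females and floxed males edgeR called 0 of the 8 members, beside 0.0322% of all genes. No member had an unadjusted p under 0.05, against 762 of the 12411 genes. DESeq2 and limma-voom also called 0 of 8, and the number of genes each called in all is given in the section on processing. The log2 differences, female over male, ran from -0.93 (SE 0.79) for Jak3 to 0.67 (SE 0.37) for Il2rb. Plus-strand members were also scaled per kilobase of exon, with all annotated exons of a gene joined. That length, 7133 bases for Stat5a and 6419 for Cish, can exceed the transcript counted, and the annotation behind the counts was not given. The order of the members on this scale depends on these lengths. Floxed males had 367 ± 30.3 CPM per kb of Il2ra, 164 ± 9.41 of Stat5a, 164 ± 19.0 of Jak3 and 150 ± 2.92 of Cish (SD, n = 3). Il2ra stood apart there, each Stat5a library lay above each Cish one, and Jak3 overlapped both. Floxed females had 411 ± 7.72 CPM per kb of Il2ra, 167 ± 9.33 of Stat5a, 160 ± 9.38 of Cish and 86.1 ± 31.6 of Jak3 (SD, n = 3), where Stat5a and Cish overlapped. In knockout males the means were Il2ra at 425 ± 88.3, Cish at 184 ± 25.9, Jak3 at 139 ± 80.6 and Stat5a at 119 ± 9.82 CPM per kb (SD, n = 3). Each Cish library lay above each Stat5a one there, and Jak3 overlapped both. In knockout females the means were Il2ra at 455 ± 88.6, Cish at 140 ± 16.9, Stat5a at 80.9 ± 52.8 and Jak3 at 35.5 ± 44.9 CPM per kb (SD, n = 3). Il2ra again stood apart, while Stat5a overlapped both Cish and Jak3.

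Among other genes of the pathway, those past the threshold were 2 STAT5 targets. Ctla4, which encodes a receptor that restrains T cell costimulation, was higher in knockout over both sexes, by 0.50 on the log2 scale (SE 0.12, edgeR adjusted p = 0.0457), and Lif, a cytokine gene, by 0.52 (SE 0.12, edgeR adjusted p = 0.0487). These calls were lost in 15 and 16 of 22 alternatives, with adjusted p values up to 0.230 and 0.212. Of 24 STAT5 target genes listed, Foxp3 among them, 19 were tested. Over both sexes 2 rose and 0 fell, beside 332 and 79 of all 12411 genes, and the median was -0.21. In females 13 of the 19 lay below 0 with a median of -0.41, and in males 8 of 19 with a median of 0.10, with none called in either sex. The medians of all tested genes were -0.02 over both sexes, -0.02 in females and 0.01 in males. Of 13 ligands and other receptor chains 5 were tested and 0 called, with a median of 0.03. All 7 other JAK and STAT genes were tested and 0 called, with a median of -0.03. In females 4 of these 7 lay above 0 and 3 below, from -1.32 to 0.39. Of 16 other negative regulators 12 were tested and 0 called (median -0.05), and of 21 adaptors and kinases below the receptor 18 were tested and 0 called (median -0.04). No gene of these lists was called by edgeR within males or within females.

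**Figure D5:**
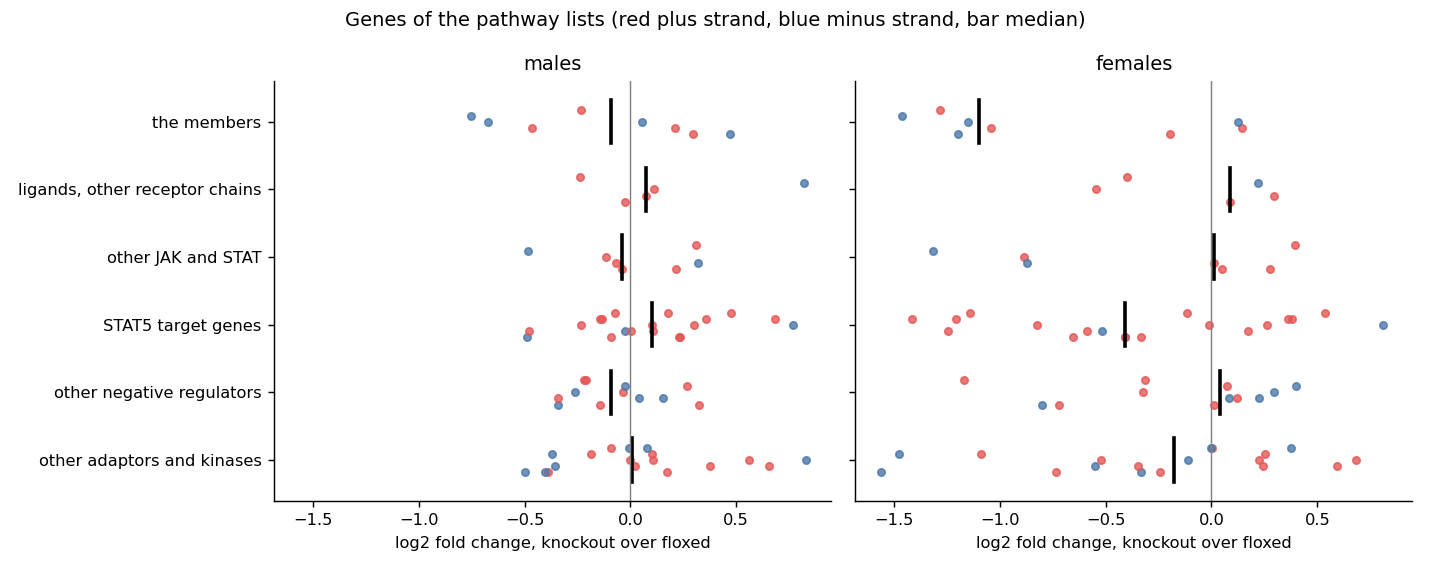
Log2 fold change, knockout over floxed (x axis), of each tested gene in the members and 5 lists of other pathway genes (y axis), in males and females. Red points are plus-strand and blue points minus-strand genes, and black bars are medians. The members' median is -0.09 in males and -1.10 in females, and the other JAK and STAT genes have medians of -0.04 and 0.01. In females these other genes are split, 4 above 0 and 3 below, from -1.32 to 0.39.

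Some of these other genes were picked after their values were seen, for their known roles, and none passed the threshold. Stat3 and Stat6, factors of other cytokines, had log2 fold changes over both sexes of -0.90 (minus strand) and 0.0036 (edgeR adjusted p = 0.209 and 0.982). Il4ra and Il21r, receptor chains that pair with the gamma chain, were at -0.22 and 0.18 (edgeR adjusted p = 0.525 and 0.273). Myc, Pim1 and Mcl1, growth and survival genes downstream of IL-2, were at -0.21, 0.14 and -0.10 (edgeR adjusted p = 0.701, 0.832 and 0.766). Ptpn1, a phosphatase of JAK kinases, was at -0.69 (edgeR adjusted p = 0.358). Among genes of these lists not picked for their roles, Cdk6, Stat4 and Ccnd3 had 0.37, 0.35 and -0.53. Their edgeR adjusted p values, 0.0733, 0.0860 and 0.121, were lower than those of the genes picked.

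The pattern of each plus-strand member over the 12 libraries was set beside 5469 genes by the Pearson correlation of log2 CPM, as a description. Il2ra was most like Naca (r = 0.91), Arl6ip5 (0.91) and Psmb7 (0.89, minus strand). Jak3 was most like Triobp (r = 0.998), Nfkbid (0.998) and Mfsd1 (0.996). Stat5a was most like Gadd45g (r = 0.99), Ubac2 (0.99) and Rell2 (0.99), and Cish most like Psd4 (0.88), Pdcd11 (0.87) and Ahsa1 (0.87). All values share the libraries, their depth and their base composition. Without female knockout libraries 1 and 3 the r values of the 3 genes were 0.81 to 0.85 for Il2ra, 0.98 to 0.99 for Jak3, 0.91 to 0.96 for Stat5a and 0.78 to 0.89 for Cish.

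Markers of the sorted cells and of other cells were read in the same libraries. All 11 Treg and T cell markers listed were detected in each group, at a summed 8267 to 10244 CPM. The 20 myeloid and dendritic markers summed to 109 to 1778 CPM in floxed males, 243 to 1908 in knockout males, 283 to 1169 in floxed females and 890 to 1726 in knockout females, with none of the 13 tested called over both sexes. All 13 had a log2 fold change above 0 in females (median 1.01) and 12 in males (median 0.33). Fcgr1 was at 0 in both male groups, Cd68 in floxed males, Cd14 and Xcr1 in both female groups and Flt3 in floxed females. The 9 double-positive thymocyte markers summed to 202 to 424 CPM in males and 312 to 755 CPM in females, with Rag1 and Ptcra at 0 in floxed females. All 6 tested lay above 0 in females (median 0.68) and 3 in males (median 0.06), with none called. The 9 NK and innate lymphoid markers summed to 174 to 434 CPM, with Klrb1c at 0 in every group. B cell, thymic epithelial and erythroid markers each summed to at most 62.8 CPM, with the epithelial genes Krt5, Foxn1 and Cldn4 and the erythroid genes Hbb-bt and Slc4a1 at 0 in every group. Minus-strand genes were poorly counted, so a marker at 0 or a low sum does not show that its cells were absent. Cd4 itself, on the minus strand, had a mean of 7.91 CPM in these CD4+ cells. The part of other cells in the members' levels was not tested.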

How the data were processed

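RNA was sequenced from 12 sorted Treg cell samples. Total RNA was extracted with TRIzol and made into libraries with SMARTer Stranded kits, per the labels' protocols. The deposited values are raw read counts per gene symbol, not normalized. CASAVA, STAR 2.5.2b, STAR 2.3.0e, HTSeq 0.6.1p1 and build mm9 are named by the submitters' processing notes, while the role of each tool, the annotation and the strand setting are not given in the sources used here. HTSeq's 5 summary lines did not enter library sizes, and genes held 29.5 to 35.7% of a library's reads.

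Samples were grouped by their titles. Genes were filtered with filterByExpr, scaled by TMM and fitted with 1 mean per group over all 12 libraries by edgeR 4.0.16 (quasi-likelihood, robust, R 4.3.3), with p-values adjusted over all tested genes and a threshold of 0.05. The pipeline was tested on simulated data. Intervals are 95% intervals of the fold change, unadjusted. Strand, exon length and GC content came from GENCODE release M21 by symbol (54586 of 55453 matched). Named genes were the 10 members, genes of 5 other pathway lists past the threshold, Foxp3 and the 3 genes most like each plus-strand member (mean log2 CPM of at least 3). Stat3, Stat6, Il4ra, Il21r, Myc, Pim1, Mcl1 and Ptpn1 were added after their values were seen, and Cdk6, Stat4 and Ccnd3 for their lower adjusted p values. The members and lists were chosen with earlier results of these data known. Alternatives used DESeq2 1.42.0, limma 3.58.1, other filters and scalings, a replicate block and left-out libraries. Replicates differed beyond counting noise (chi-square per degree of freedom 5.38 to 171). Some results are not reported here. Figures used matplotlib 3.10.9.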

Additional observations from a re-analysis of the deposited data

How the results depend on the processing

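The count of all genes called, and of members called, depended on the test. In males 3 genes were called, and 237 by DESeq2, 178 by limma-voom, 26 with no low-count filter, 0 on male libraries alone, 0 on plus-strand genes, 11 with female knockout library 2 alone in its group, 0 with library 4 of the floxed males and library 2 of the knockout males both left out, 8 after the GC correction, and 0 to 35 with 1 library left out. In females 25 were called, and 703 by DESeq2 (1 member), 5462 by limma-voom (5 members), 94 with no filter, 50 at 5 CPM in 3 libraries, 0 on female libraries alone, 0 with library 2 alone, 63 with those 2 male libraries left out, 67 after the GC correction, and 0 to 3089 (0 to 5 members) with 1 left out. Over both sexes 411 were called, and 1129 by DESeq2 (2 members), 4656 by limma-voom (5 members), 44 with library 2 alone, and 98 to 2940 (0 to 4 members) with 1 left out. For the difference between the sexes limma-voom called 1055 genes (3 members), and with 1 library left out 0 to 1108 (0 to 4 members). Floxed females against floxed males gave 4 genes, 59 by DESeq2, 9 by limma-voom, 12 with no filter and 3 to 20 with 1 left out. The cause of these differences was not tested.

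With the replicate number as a block, 0 genes were called in males, 0 in females and 1218 over both sexes (1 member, Jak1). Whether the numbers mark matched libraries was not given. The correlation of same-numbered deviations was 0.44 and -0.61 in males and 0.19, 0.28 and -0.22 in females. Libraries of different numbers had -0.37 to 0.67 in males and -0.48 to 0.46 in females. Deviations from a mean of 3 libraries are tied to each other, so these values cannot decide it.

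Of 684 values of members, Ctla4 and Lif under alternatives, 609 kept direction and side of the threshold and 17 changed sign, none of them called. Values that kept their direction but had no adjusted p were counted among the 609. Il2rb turned to -0.16 to 0.29 in males, -0.30 to 0.39 in females and -0.13 to 0.22 over both sexes with 1 library left out, to -0.18 in females and -0.020 over both sexes by limma-voom and to -0.25 and -0.10 in the same comparisons with female knockout library 2 alone. With that library alone Il2ra was -0.10 and Jak3 0.018 in females, Socs2 0.13 over both sexes and Jak3 0.26 in the difference between the sexes. With 1 library left out Il2ra in females ran from -0.036 to 0.26 and Jak3 in males from -0.81 to 0.016.

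Depth limits the minus-strand members most, and groups of 3 libraries limit all of them.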
